A study of Mus musculus with 10 samples.

Results

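Fetal and oncofetal liver genes are genes that are active in the liver before birth, are silenced in the adult organ and often return in liver cancer. The set examined here comprised 10 genes, Afp, H19, Igf2, Gpc3, Dlk1, Igf2bp1, Igf2bp3, Lin28b, Zhx2 and Tff3, out of 55421 gene identifiers in the count table. They were chosen by name with earlier results of these data known. Not every member is silenced in the adult organ, since Zhx2, a repressor of some of the others, was present in every control. Of these 10, 9 had at least 10 counts in total over the livers and entered the tests, together with 22449 genes in all. Lin28b had no count in any liver.

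The livers came from male C57BL/6 mice injected at 6 months of age with an AAV8 vector whose Tbg promoter is active in hepatocytes, and were taken 3 weeks later for poly(A) RNA-seq of whole tissue. The H3.3 KO group (n = 4) carried floxed alleles of both genes for the replication-independent histone variant H3.3 (H3f3a fl/fl H3f3b fl/fl) and received Tbg-Cre. WT Cre controls (n = 3) were wildtype mice given the same Tbg-Cre vector, and MCS controls (n = 3) were floxed mice given Tbg-MCS, which carries no Cre. Deletion was thus directed to hepatocytes that took up the vector, and the whole tissue also held liver cells that were not targeted. The genotype field of the floxed samples names HIRA fl/fl, but the titles name the H3.3 genes, and samples were grouped by title. The labels do not say that each library is a separate animal, so the p-values measure the spread between these libraries.

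Afp (alpha-fetoprotein) is the main serum protein of the fetal liver, and its fall after birth is a classical example of developmental silencing. Zhx2 encodes a zinc finger and homeobox repressor that keeps Afp, H19 and Gpc3 low in the adult mouse liver. Igf2 encodes a fetal growth factor expressed from the paternal allele, and H19, next to it, is a noncoding RNA expressed from the maternal allele. Dlk1 is a paternally expressed transmembrane protein of hepatoblasts, and its neighbour Meg3 is a maternally expressed noncoding RNA. Igf2bp1 and Igf2bp3 are RNA-binding proteins that bind Igf2 mRNA among others, and Lin28b blocks maturation of let-7 microRNAs. Gpc3 is a cell surface heparan sulfate proteoglycan used as a marker of hepatocellular carcinoma, and Tff3 is a secreted mucosal peptide.

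The sequences upstream of the start sites of Igf2 and Gpc3, the members for which every KO liver lay above every control, are shown with those of Afp and Dlk1, which did not pass the test against all controls. Each line gives the 150 bases before a RefSeq start site (GRCm38.p6), 5′ to 3′ on the strand of the gene. Capitals mark the letters of the TATA box core TATAAA, the GC box GGGCGG and the CCAAT box CCAAT on either strand, and no marked motif overlapped another. None of these 5 windows overlapped an annotated exon. Of the 10 members, 6 had a RefSeq window.
Igf2, chr7:142657497-142657646, minus strand: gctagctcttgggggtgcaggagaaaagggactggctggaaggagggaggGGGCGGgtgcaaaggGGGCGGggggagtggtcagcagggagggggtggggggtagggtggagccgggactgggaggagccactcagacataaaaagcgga
Igf2, chr7:142666817-142666966, minus strand: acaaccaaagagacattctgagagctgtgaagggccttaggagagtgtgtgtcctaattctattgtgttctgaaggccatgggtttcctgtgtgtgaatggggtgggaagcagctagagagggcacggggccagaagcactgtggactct
Gpc3, chrX:52613975-52614124, minus strand: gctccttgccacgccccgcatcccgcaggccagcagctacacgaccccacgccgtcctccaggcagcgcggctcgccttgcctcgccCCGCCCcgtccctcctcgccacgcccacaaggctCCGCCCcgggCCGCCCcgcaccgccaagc
Afp, chr5:90490564-90490713, plus strand: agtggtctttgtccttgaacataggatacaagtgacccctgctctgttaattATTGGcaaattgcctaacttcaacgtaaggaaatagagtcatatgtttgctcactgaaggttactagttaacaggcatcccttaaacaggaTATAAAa
Dlk1, chr12:109452673-109452822, plus strand: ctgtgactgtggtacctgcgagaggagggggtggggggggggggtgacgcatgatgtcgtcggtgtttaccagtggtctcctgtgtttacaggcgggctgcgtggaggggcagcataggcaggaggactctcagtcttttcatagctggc

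Over 32851 windows of the same length, the median GC content was 54% with 4 CpG. The Gpc3 window had 78% GC, 19 CpG and 3 GC boxes. The Igf2 window ending at 142657646 had 66.7% GC, 4 CpG and 2 GC boxes, whereas the other Igf2 window shown had 52% GC, 1 CpG and none of the 3 motifs. Igf2 windows not shown, which overlapped an Igf2 exon, held more CpG. The window starting at 142661272 had 54.7% GC, 9 CpG and none of the motifs, and that starting at 142658805 had 68% GC, 11 CpG and 1 GC box. The GC box was present in 28.6% of all windows. The Afp window had 38% GC, 1 CpG, 1 TATA box core, which 7.57% of windows held, and 1 CCAAT box, which 24.5% held. The Dlk1 window had 61.3% GC, 6 CpG and none of these letters. These matches describe the windows and were not measured as binding sites.

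Igf2 and H19 each host a microRNA, and the mature sequences from RefSeq are shown because reads of the hosts do not measure them. The seed, bases 2 to 8, is in capitals, and the 4 seeds differ from each other.
miR-483-5p (Igf2): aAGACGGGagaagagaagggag
miR-483-3p (Igf2): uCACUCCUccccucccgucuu
miR-675-5p (H19): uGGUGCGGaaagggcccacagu
miR-675-3p (H19): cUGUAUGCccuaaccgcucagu
The 73-base Mir483 locus had no count in the 6 controls and 0, 3, 1 and 1 counts in KO 1 to KO 4, and Mir675 had no count in any liver. Mature microRNAs are not measured in poly(A) libraries.

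Counts assigned to genes ranged from 14998426 (KO 1) to 26096141 per library, and 3 counts, taken as the floor, corresponded to 0.115 to 0.195 CPM (counts scaled to the library size, after scaling by trimmed mean of M-values). H3f3a fell from 59.9 to 63.7 CPM in the controls to 15.97 to 19.01 CPM in the KO livers, and H3f3b fell from 136 to 204 to 39.8 to 56.7 CPM. KO 1 was as depleted of both as the other 3 KO livers, but stood apart for several members below. Without it the same number of members passed against the pooled controls (3), with log2 fold changes of 11.8 for Igf2, 2.47 for Gpc3 and 2.94 for Igf2bp3. The members that did not pass with it did not pass without it either, with log2 fold changes of -0.43 for Afp, 0.07 for H19, 1.51 for Dlk1, 2.12 for Igf2bp1, 0.24 for Zhx2 and -1.82 for Tff3. Median log2 fold change over all genes was -0.003 for KO against the 6 pooled controls.

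Against the pooled controls, Igf2, Gpc3 and Igf2bp3 rose and no member fell, which is 3 higher and 0 lower of 9 tested. Among all genes, 19.7% rose and 16.6% fell in the same comparison (edgeR adjusted p under 0.05), which is the background to read the members' count against. The members and the lists below were chosen with earlier results of these data known, so setting their counts beside these shares is a description and no test. At an unadjusted p under 0.05 by edgeR, Dlk1 and Igf2bp1 were higher as well, and 1 member, Tff3, was lower. The median log2 fold change of the 9 members was 1.96, the value of Igf2bp1, which was at or near the floor and did not pass. This median was 2.53 against the WT Cre controls and 1.01 against the MCS controls. All 4 KO livers lay above all 6 controls in CPM for Igf2 and Gpc3, as they did for 12.5% of genes. No member lay below in all 4, as 12% of genes did.

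**Figure D1:**
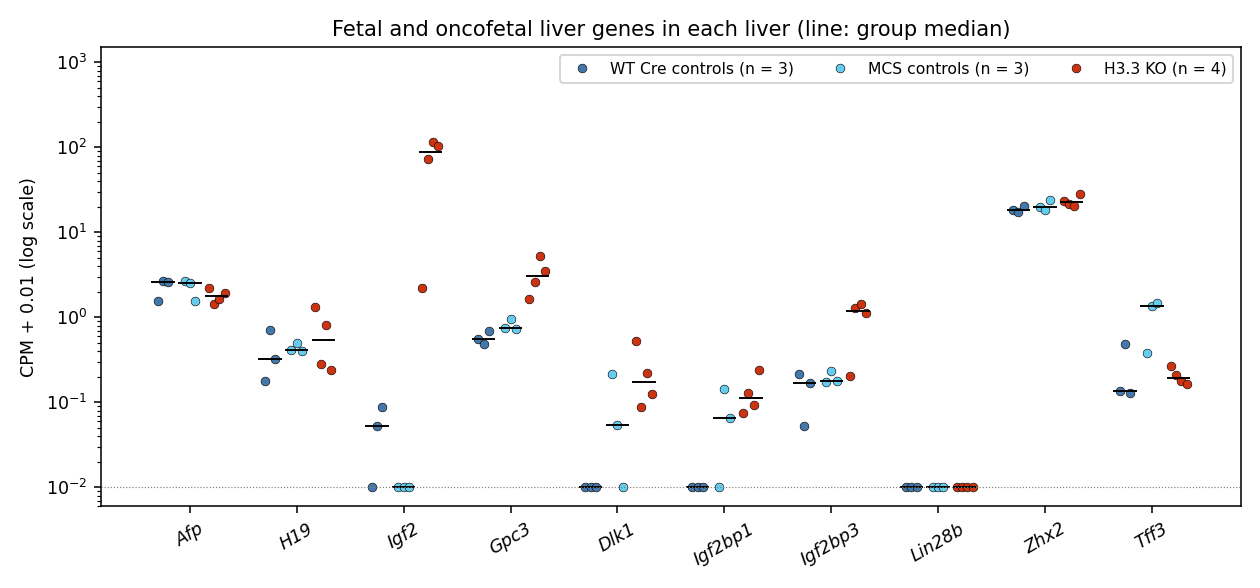
CPM plus 0.01 on a log axis for the 10 members, with a point for each liver and a line at each group median. Dark blue points are WT Cre controls, light blue points MCS controls and red points H3.3 KO livers, and points on the dotted line had 0 counts. The KO points of Igf2 and Gpc3 lie above every control point, KO 1 lies lowest among the KO livers for both, and Lin28b is at 0 throughout.

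Igf2 (ENSMUSG00000048583.16, chr7:142650766-142666816, minus strand, GENCODE on GRCm38) was at the floor in every control. It had 0, 1 and 2 counts in the WT Cre controls and 0 in each MCS control. It had 34, 1859, 2723 and 2740 counts in KO 1 to KO 4, or 2.22, 73.5, 115 and 105 CPM. KO 1 was thus far below the other 3 KO livers, yet above all controls. Over the groups, 7356 counts in KO against 3 in the controls gave a ratio of 3714 after scaling (95% exact interval 1270 to 18010, counting error only). KO 1 alone gave a ratio of 101 (31.8 to 515). Against the MCS controls, at 0, the KO counts were 1757-fold over a floor of 3 counts taken over the group.

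By edgeR, the fitted log2 fold change of Igf2 against the pooled controls was 11.40 ± 1.34 (SE, adjusted p = 0.000308), the second in rank from the top of all genes tested. Fitted values of a gene with 3 control counts depend on the prior count and set no bound. Without KO 1 the log2 fold change was 11.8 (edgeR adjusted p = 1.21e-09). Voom with limma kept the direction (10.2) but gave an adjusted p of 0.101, the highest of the 19 alternatives, whose adjusted p began at 3.56e-15.

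The deposited FPKM table showed the same split between groups at other levels. Igf2 was listed at 0.391, 0.219 and 0.194 FPKM in the WT Cre controls and 0.528, 0.370 and 0.240 FPKM in the MCS controls. It was listed at 13.2, 380, 592 and 490 FPKM in KO 1 to KO 4. The ratio of means was 1139, and KO 1 stood 40.7-fold over the control mean. The median KO level was 435 FPKM, whereas the counts gave 15.6 CPM per kilobase of merged exons. For Zhx2 the same pair of medians was 4.49 FPKM and 5.08 CPM per kilobase, and for Gpc3 1.34 and 1.14. The size of the Igf2 change and its level therefore differed between the tables. The protein-coding gene Gm49394 (chr7:142650769-142669942) lies over Igf2 on the same strand. How reads that fit both were assigned is not given in the sources used here, and its part in the gap was not tested.

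**Figure D2:**
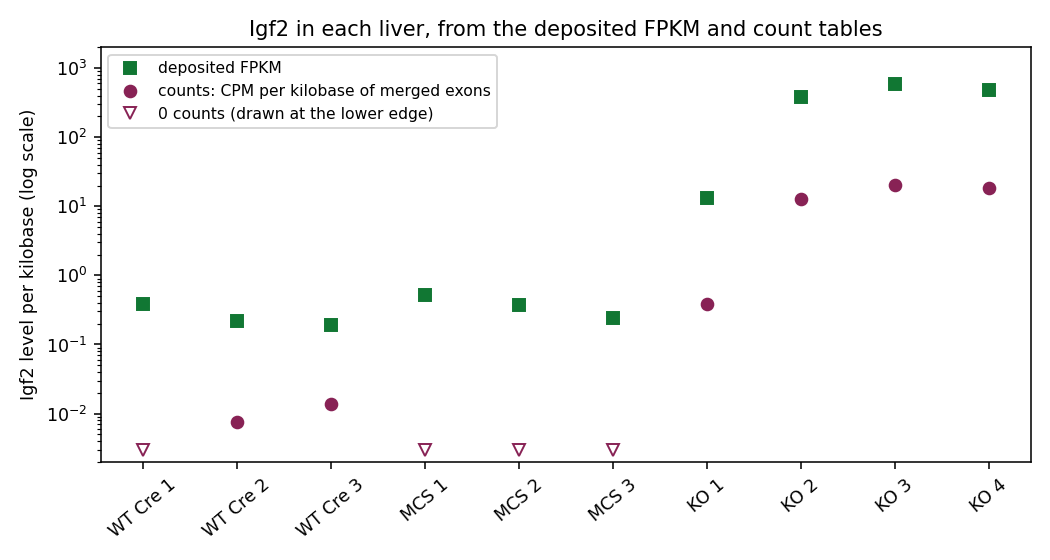
Igf2 in each of the 10 livers on a log axis, as deposited FPKM (green squares) and as CPM per kilobase of merged exons (purple circles), with open triangles at the lower edge for 0 counts. Both tables put KO 1 between the controls and KO 2 to KO 4, and the FPKM values lie above the count values in every liver.

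The genes around Igf2 were singled out after their values were seen. Igf2os, an antisense noncoding RNA (chr7:142659693-142670356, plus strand), had no count in the 6 controls and 19, 314, 388 and 404 counts in KO 1 to KO 4, at least 568-fold higher with the floor taken over the group. Gm49394 had no count in the controls and 1, 20, 49 and 35 counts in the KO livers, 53-fold over the same floor. The deposited FPKM listed up to 0.0847 for Igf2os and 0.0210 for Gm49394 in controls. The ratios of FPKM means were 142 and 799, and KO 1 stood 12.3-fold and 16.3-fold over the control mean. Both passed against the pooled controls by edgeR (adjusted p = 0.00925 and 0.00795). Ins2, 11839 bases from Igf2 and another paternally expressed gene of the cluster, had no count in any liver. The library kit keeps strand, but whether the counting used it is not given in the sources used here, so Igf2 and Igf2os reads where the genes overlap may not be separated.

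H19 (ENSMUSG00000000031.16, chr7:142575529-142578143), 72622 bases from Igf2, did not pass the test. It had 4, 16 and 8 counts in the WT Cre controls, 10, 11 and 7 in the MCS controls and 20, 7, 19 and 6 in KO 1 to KO 4. In CPM the controls ran from 0.167 to 0.694 and the KO livers from 0.230 to 1.30, and the groups overlapped. KO 1, lowest of the KO livers for Igf2, was highest for H19 at 1.30 CPM. The log2 fold change was 0.58 ± 0.49 (SE, with an adjusted p of 0.386 by edgeR) and 0.07 without KO 1.

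**Figure D3:**
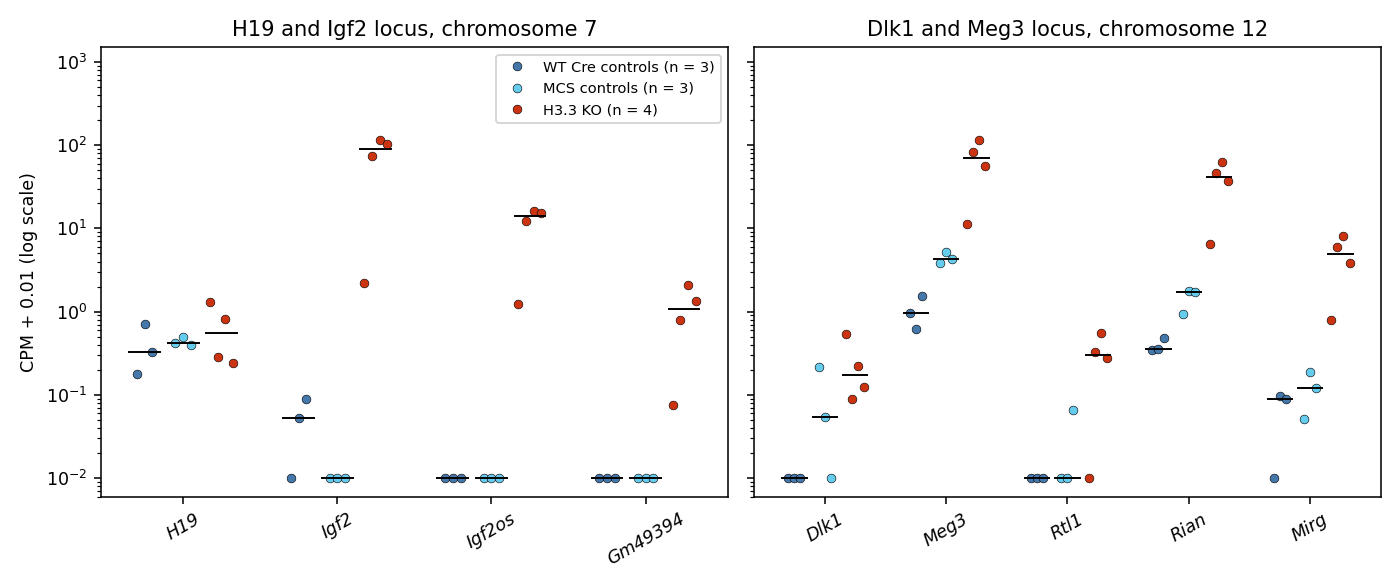
CPM plus 0.01 on a log axis for genes of the H19 and Igf2 locus (left) and of the Dlk1 and Meg3 locus (right), with a point for each liver, coloured by group, and a line at each group median. Igf2, Igf2os and Gm49394 are at or near 0 in the controls and raised in the KO livers, while H19 overlaps between groups. Meg3, Rian and Mirg are above all controls in every KO liver, with KO 1 lowest of the 4.

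Dlk1 (ENSMUSG00000040856.17, chr12:109452823-109463336) was close to the floor throughout. It had 0, 0 and 0 counts in the WT Cre controls, 5, 1 and 0 in the MCS controls and 8, 2, 5 and 3 in KO 1 to KO 4. The KO to control ratio was 4.54 (95% exact interval 1.73 to 14.0, counting error only). Against the pooled controls the log2 fold change was 2.13 ± 0.91 (SE, with an adjusted p of 0.0829 by edgeR). Without MCS 1, which held 5 of the 6 control counts, it was 3.90 (edgeR adjusted p = 0.00906), and without KO 1, which held 8 of the 18 KO counts, it was 1.51 (adjusted p = 0.235), the ends of the range over the alternatives. Dlk1 also passed by voom (adjusted p = 0.0245) and with log2(FPKM + 0.1) (adjusted p = 0.0397 by limma).

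Meg3 lies 77664 bases from Dlk1, and it and its neighbours Rian, Mirg and Rtl1, imprinted like Dlk1, were also singled out after their values were seen. Meg3 had 23, 14 and 39 counts in the WT Cre controls and 95, 118 and 77 in the MCS controls. It had 175, 2121, 2706 and 1488 counts in KO 1 to KO 4. In CPM these were 0.607 to 5.27 in the controls and 11.4, 83.9, 114 and 56.9 in the KO livers, a log2 fold change of 4.61 ± 0.75 (SE, with an adjusted p of 0.00161 by edgeR) and 4.96 without KO 1. KO 1 again lay between the controls and the other KO livers. Rian, a host of small nucleolar RNAs, and Mirg, a host of microRNAs, rose by 5.41 ± 0.69 and 5.79 ± 0.66 on the log2 scale. Rtl1, a retrotransposon-derived gene, had 1 count in the controls, 0 in KO 1 and 28 in KO 2 to KO 4. Between WT Cre and MCS controls, Meg3 had a log2 fold change of -2.09 and did not pass (edgeR adjusted p = 0.434).

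Of 30 imprinted genes, 27 were tested. Of these, 17 rose, 3 fell and 7 did not pass, with a median log2 fold change of 0.75, where 19.7% of all genes rose and 16.6% fell. The 3 with the smallest p were Phlda2, Gnas and Cdkn1c. Phlda2, a growth-restraining gene of the placenta, was at 0.0447 to 0.304 CPM in the controls and 3.13 to 9.23 CPM in the KO livers (log2 fold change 5.26 ± 0.40). Cdkn1c, a cyclin-dependent kinase inhibitor, was at 0.782 to 1.67 and 4.36 to 6.17 CPM (1.86 ± 0.21). Gnas, which encodes the stimulatory G protein alpha subunit, fell from 125 to 140 CPM to 55.8 to 74.7 CPM (-0.98 ± 0.10). Imprinted genes thus moved in both directions, and the summed CPM of the list was lower in KO (828 to 1089) than in controls (1188 to 1609). Slc38a4, an amino acid transporter singled out after its values were seen, made up most of that sum, with 938 to 1381 CPM in controls and 554 to 637 CPM in KO.

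**Figure D4:**
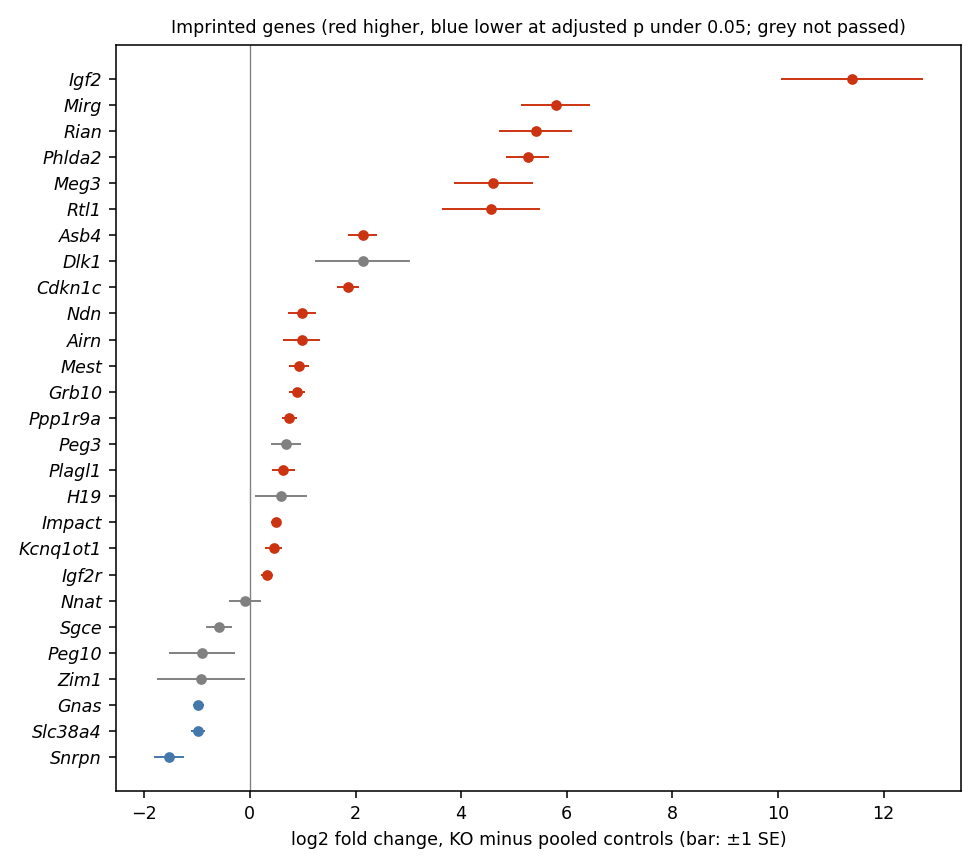
edgeR log2 fold change of KO against the 6 pooled controls for the 27 imprinted genes tested, with bars of 1 SE. Red points passed as higher (17), blue points as lower (3) and grey points did not pass (7). Igf2 stands furthest to the right at 11.40, while H19 and Dlk1 are among the grey points.

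Gpc3 (ENSMUSG00000055653.13, chrX:52272426-52613950, minus strand) rose in all 4 KO livers. It had 13, 11 and 17 counts in the WT Cre controls, 18, 21 and 13 in the MCS controls and 25, 66, 125 and 92 in KO 1 to KO 4. The CPM were 0.477 to 0.938 in the controls and 1.63, 2.61, 5.27 and 3.52 in the KO livers, so the groups did not overlap. The mean was 0.682 ± 0.162 CPM in controls (SD, n = 6) and 3.26 ± 1.55 CPM in KO (SD, n = 4), 4.78-fold higher. The log2 fold change was 2.26 ± 0.30 (SE, with an adjusted p of 1e-04 by edgeR), and it passed in all 19 alternatives.

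Glypicans carry heparan sulfate chains that bind growth factors. Of the 6 in the table, 5 were tested, 3 rose and none fell, where 19.7% of all genes rose and 16.6% fell, while at an unadjusted p under 0.05 by edgeR there was also no fall. Gpc2, a glypican of the developing nervous system, was at 0.0559 to 0.198 CPM in controls and 0.650 to 1.54 CPM in KO (log2 fold change 2.97 ± 0.37). Gpc6 was at 0.279 to 0.570 and 0.717 to 1.26 CPM (1.31 ± 0.26). The 2 glypicans that are most abundant in these livers, Gpc4 and Gpc1, had log2 fold changes of 0.14 and -0.04 and did not pass, and the sign of Gpc1 was positive in 8 alternatives. Gpc5 had 6 counts in all and was not tested.

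Igf2bp3 (ENSMUSG00000029814.10, chr6:49085223-49214957) rose in 3 of the 4 KO livers. It had 5, 1 and 4 counts in the WT Cre controls, 4, 5 and 3 in the MCS controls and 3, 32, 34 and 29 in KO 1 to KO 4. KO 1, at 0.196 CPM, lay within the controls (0.0434 to 0.223 CPM), and the other 3 KO livers were at 1.11 to 1.43 CPM. The log2 fold change was 2.64 ± 0.46 (SE, with an adjusted p of 0.000727 by edgeR) with KO 1 and 2.94 without it. The ratio of counts in KO 1 to controls was 1.22 (95% exact interval 0.233 to 4.05, counting error only).

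Igf2bp1 (ENSMUSG00000013415.9, chr11:95957163-96005940) was at or near the floor in all livers. It had no count in the WT Cre controls, 0, 3 and 1 counts in the MCS controls and 1, 3, 2 and 6 in KO 1 to KO 4. The log2 fold change against the pooled controls was 1.96 ± 0.86 (SE, with an adjusted p of 0.0926 by edgeR), and 3.25 without MCS 2 (adjusted p = 0.0164, against up to 0.675 over the alternatives). Lin28b (ENSMUSG00000063804.8, chr10:45376620-45486395) had no count in any liver, which allows up to 0.115 to 0.195 CPM per liver for counting error only. The deposited FPKM listed Lin28b at up to 0.0126 in the controls and up to 0.0302 in KO, with 3 blank cells.

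Among 11 genes of the Igf2bp and Lin28 families and their let-7 partners in the table, 8 were tested, 5 rose and none fell, where 19.7% and 16.6% of all genes did, while at an unadjusted p under 0.05 by edgeR none was lower either. Tut4 and Tut7, terminal uridylyltransferases that act on the let-7 precursor, had log2 fold changes of 1.22 ± 0.15 and 0.62 ± 0.13. Dis3l2, the exonuclease that removes the uridylated precursor, rose by 1.03 ± 0.16 on the log2 scale. Hmga1, a chromatin architectural protein, was at 8.63 to 12.3 CPM in controls and 11.0, 25.2, 24.0 and 74.5 CPM in KO 1 to KO 4 (1.73 ± 0.43, and 2.02 without KO 1), so KO 1 was again within the controls. Hmga2 had 31 counts in all (log2 fold change 0.88, edgeR adjusted p = 0.176). Lin28a had 3 and Trim71 had 9 counts in all and were not tested. Igf2bp2, the member of its family found in adult tissues, was the only gene of this list to pass between the controls. It was at 3.45 to 4.71 CPM in WT Cre and 0.896 to 2.29 CPM in MCS controls (log2 fold change 1.51, edgeR adjusted p = 0.0386), with the KO livers at 1.76 to 2.28 CPM. It was lower in KO than in WT Cre (log2 fold change -0.92, edgeR adjusted p = 0.0242) and did not pass against the pooled controls (-0.36).

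Afp (ENSMUSG00000054932.6, chr5:90490737-90508907) was present at low level in every liver and did not rise. It had 37, 61 and 65 counts in the WT Cre controls, 65, 56 and 28 in the MCS controls and 34, 36, 39 and 51 in KO 1 to KO 4. The CPM were 1.54 to 2.65 in controls and 1.42 to 2.22 in KO, and among the KO livers KO 2 alone lay below the controls. The mean was 2.25 ± 0.54 CPM (SD, n = 6) in controls and 1.81 ± 0.35 CPM (SD, n = 4) in KO. The log2 fold change was -0.33 ± 0.23 (SE, with an adjusted p of 0.288 by edgeR), and between -0.43 and -0.16 over the alternatives.

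Afp belongs to the albumin gene cluster with Alb, Afm and Gc, all secreted plasma proteins of hepatocytes. Of these 4, 2 fell, none rose and 2 did not pass, where 16.6% of all genes fell, and none was higher at an unadjusted p under 0.05 by edgeR. Afm (afamin) fell from 264 to 329 CPM to 45.9 to 77.6 CPM (log2 fold change -2.20 ± 0.15). Alb fell by 0.49 ± 0.14 in log2 units (adjusted p of 0.0169 by edgeR), a call that was lost without KO 3 or KO 4 (adjusted p = 0.0535 and 0.0586) over a range of 0.00049 to 0.0988. Alb did not pass against the WT Cre controls (edgeR adjusted p = 0.067). Gc, the vitamin D binding protein, had a log2 fold change of -0.20 (edgeR adjusted p = 0.213).

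Zhx2 (ENSMUSG00000071757.10, chr15:57694665-57839832) was the most abundant member per kilobase in the controls. It had 442, 404 and 517 counts in the WT Cre controls, 492, 412 and 432 in the MCS controls and 358, 549, 491 and 732 in KO 1 to KO 4. The CPM were 17.5 to 24.1 in controls and 20.7 to 28.0 in KO, and the groups overlapped. In the deposited FPKM they did not overlap (3.19 to 4.06 in controls, 4.29 to 5.93 in KO), and Zhx2 passed there (limma adjusted p = 0.0258 and 0.0261 with 1 or 0.1 added). The log2 fold change was 0.24 ± 0.12 (SE, with an adjusted p of 0.121 by edgeR). With library size as the only scaling, which moved the median of all genes by 0.18, it was 0.42 (adjusted p = 0.0112), and without MCS 3 it was 0.30 (adjusted p = 0.0406), over a range up to 0.367.

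Among 15 regulators of Afp in the table, all tested, 1 rose, 2 fell and 12 did not pass, where 19.7% of all genes rose and 16.6% fell. Prox1, a homeobox factor of hepatoblast growth, rose by 0.69 ± 0.14 on the log2 scale, from 68.4 to 114 CPM to 128 to 174 CPM. Foxa2, a pioneer factor of liver genes, fell from 22.8 to 50.8 CPM to 14.6 to 18.9 CPM (log2 fold change -1.08 ± 0.22). Cebpb, a leucine zipper factor of the acute phase, differed between the controls (65.2 to 78.5 CPM in WT Cre, 131 to 169 CPM in MCS, edgeR adjusted p = 0.0157), with the KO livers between 76.0 and 123 CPM.

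Tff3 (ENSMUSG00000024029.4, chr17:31125306-31129646) was low in KO and variable in the controls. It had 3, 11 and 3 counts in the WT Cre controls, 9, 30 and 26 in the MCS controls and 4, 5, 4 and 4 in KO 1 to KO 4. The KO livers (0.153 to 0.261 CPM) lay below all MCS controls (0.366 to 1.45 CPM) but within the WT Cre controls (0.119 to 0.477 CPM). Against the pooled controls the log2 fold change was -1.69 ± 0.74 (SE, with an adjusted p of 0.0943 by edgeR), and it passed without WT Cre 1 or WT Cre 3 (adjusted p = 0.0435 and 0.0404), with a highest adjusted p of 0.34 over the alternatives. Of the 3 trefoil genes, Tff1 fell, with 23 counts in the controls and 1 in KO (log2 fold change -3.40 ± 1.10, edgeR adjusted p = 0.0282). That call was lost in 7 alternatives, among them without MCS 1, without KO 3 and without KO 4 (adjusted p = 0.0611, 0.0775 and 0.0747), within 0.00838 to 0.345. Tff2 had a log2 fold change of -1.79 (edgeR adjusted p = 0.31).

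A list of the insulin-like growth factor axis held 16 genes, all tested, namely ligands, receptors and binding proteins together with the insulin receptor, its adaptors Irs1 and Irs2 and the growth hormone receptor Ghr. Of these, 4 rose, 3 fell, among them Ghr (log2 fold change -0.82), and 9 did not pass, where 19.7% of all genes rose and 16.6% fell. Igfbp5, an IGF-binding protein, rose from 3.17 to 7.98 CPM to 24.0 to 81.6 CPM (log2 fold change 3.35 ± 0.36), with KO 1 the highest. Igf1, the postnatal ligand made by hepatocytes, fell from 466 to 736 CPM to 277 to 341 CPM (-0.88 ± 0.15), and on the deposited FPKM it did not pass (log2 differences of -0.342 and -0.343, limma adjusted p = 0.0864 and 0.0825, the highest of a range that began at 9.99e-08). Among 18 tested genes of hepatoblasts and liver tumours, 9 rose, none fell and 9 did not pass against the pooled controls, where 19.7% of all genes rose and 16.6% fell, and at an unadjusted p under 0.05 by edgeR none was lower. Against the WT Cre controls 7 rose and 1, Peg10, fell. Scd2, a desaturase abundant in fetal liver, rose from 8.27 to 18.1 CPM to 867 to 1437 CPM (6.57 ± 0.26), and KO 1 was among the higher KO livers at 1297 CPM. The glycolytic enzymes Hk2 and Pkm rose by 2.32 ± 0.19 and 2.05 ± 0.18 on the log2 scale. Sox4, an SRY-related factor, rose by 0.83 ± 0.26 and also differed between the controls, at 3.08 to 3.46 CPM in WT Cre and 1.26 to 1.73 CPM in MCS (edgeR adjusted p = 0.0224). It did not pass against WT Cre alone (log2 fold change 0.40, edgeR adjusted p = 0.1), nor against the pooled controls without MCS 2 or without KO 3 (adjusted p = 0.0507 and 0.0598, over a range of 0.00939 to 0.0723).

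The control groups were then compared with KO separately, since only the WT Cre group shared Cre exposure with KO and only the MCS group shared the floxed alleles. The assignment of table columns to each control group rests on library numbers in the labels. These comparisons share the KO livers. Against the WT Cre controls, 5 members rose and none fell, where 15.3% of all genes rose and 13.1% fell. The additional members were Dlk1 and Igf2bp1, with WT Cre at 0 counts (edgeR adjusted p = 0.0287 and 0.0306). Their KO counts were 4.79-fold and 3.19-fold over a floor of 3 counts taken over the group, with no allowance for counting error in KO. Igf2, Gpc3 and Igf2bp3 passed as well (edgeR adjusted p = 0.0151, 0.000544 and 0.00442). Igf2 did not pass by voom (adjusted p = 0.279, the highest of its range from 3.69e-10). On the deposited FPKM, which was not at 0 throughout WT Cre, Dlk1 (limma adjusted p = 0.133 and 0.0836) and Igf2bp1 (0.747 and 0.682) did not pass. At an unadjusted p under 0.05 by edgeR, Zhx2 was also higher and no member was lower. With each WT Cre library left out in turn, the 5 became 2, as Igf2 (adjusted p 0.0528 to 0.0546), Dlk1 and Igf2bp1 no longer passed, and without KO 2, KO 3 or KO 4 there were 4.

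Against the MCS controls, 3 members rose and 1 fell, where 17.3% of genes rose and 14.8% fell. The members that rose were Igf2, Gpc3 and Igf2bp3 (edgeR adjusted p = 0.0131, 0.0014 and 0.00759), and Tff3 fell (log2 fold change -2.42 ± 0.56, adjusted p = 0.00615). Igf2 did not pass by voom (adjusted p = 0.286, the highest of its range from 1.1e-11), and Igf2bp3 did not pass on FPKM (limma adjusted p = 0.0979 and 0.139, over a range from 0.000143). Dlk1 and Igf2bp1 had log2 fold changes of 1.16 and 1.01 and did not pass (edgeR adjusted p = 0.375 and 0.418). Between WT Cre and MCS controls 0 of 9 members passed by edgeR, DESeq2 or voom, where 0.927% of genes passed. At an unadjusted p under 0.05 by edgeR there were 3, namely Tff3, Dlk1 and Igf2bp1, each lower in WT Cre (log2 fold changes -2.10, -4.13 and -3.62).

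**Figure D5:**
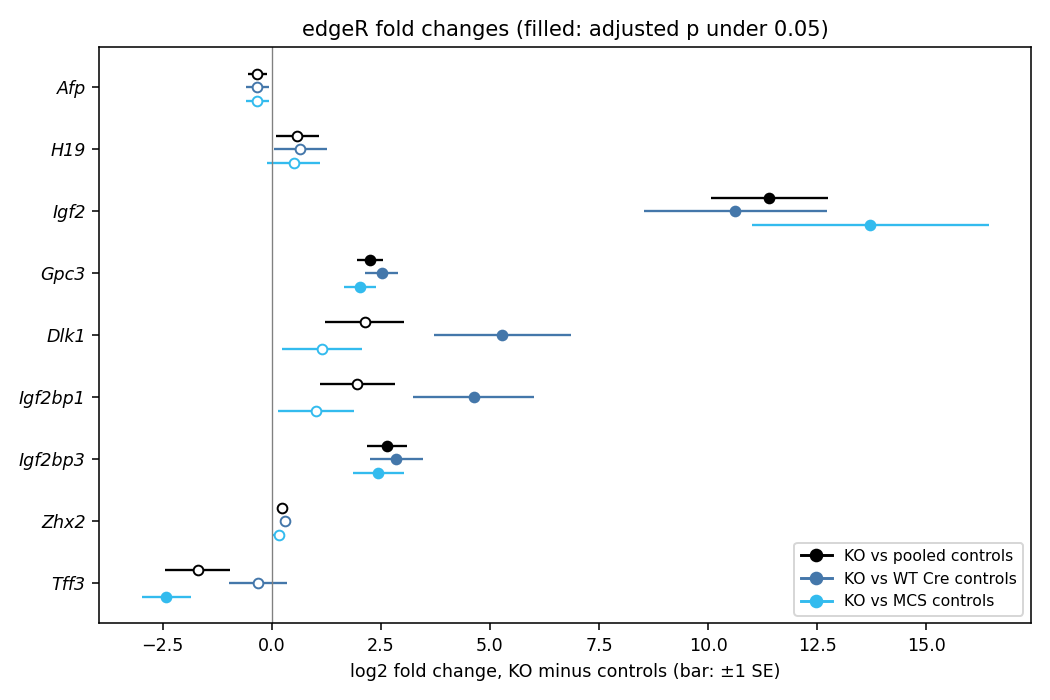
edgeR log2 fold change of the 9 tested members, KO minus controls, with bars of 1 SE, against the 6 pooled controls (black), the WT Cre controls (dark blue) and the MCS controls (light blue). Filled points had an adjusted p under 0.05. Igf2, Gpc3 and Igf2bp3 are filled in all 3 comparisons, Dlk1 and Igf2bp1 only against WT Cre, and Tff3 only against MCS.

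By median CPM per kilobase of merged exons, the order in the controls was Zhx2, Tff3, Afp, Gpc3, H19 and Igf2bp3. Igf2, Dlk1, Igf2bp1 and Lin28b tied behind them at a median of 0. Ranges of neighbours did not overlap between Zhx2 and Tff3, between Afp and Gpc3 and between H19 and Igf2bp3. The other neighbours in this order were not separated beyond their spread. In the deposited FPKM the order differed, since Igf2 had a control median of 0.305, above Gpc3 at 0.253. In KO, Igf2 came first with a median of 15.6 CPM per kilobase, followed by Zhx2 (5.08), Gpc3 (1.14) and Afp (0.533), then Tff3, H19, Igf2bp3, Dlk1, Igf2bp1 and Lin28b. Of these KO neighbours with any count, only Zhx2 and Gpc3 had ranges that did not overlap, since Igf2 in KO 1 was at 0.387.

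Over the 10 livers, the genes whose log2 CPM was most like that of Igf2 were Igf2os (Pearson r = 0.997), Omp (0.995) and Otulinl (0.994). For Gpc3 they were Myh10 (0.983), Furin (0.982) and Cd9 (0.977), and for Igf2bp3 Akt1 (0.979), Htt (0.977) and Tspan13 (0.976). The livers fall into control and KO groups, so these values describe a shared difference between groups.

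Markers of liver cell types moved with the groups as well. In whole-liver RNA, fewer cells of a type and less RNA per cell cannot be told apart. Of 8 hepatocyte markers 7 were lower in KO against the pooled controls and against MCS, and 3 against WT Cre. Among all genes 16.6%, 14.8% and 13.1% fell in these comparisons. The summed level of the markers was 105500 to 151000 CPM in controls and 77780 to 91690 CPM in KO. Alb made up most of that sum, with 83710 to 118200 CPM in controls and 61390 to 75940 CPM in KO. All 9 stellate cell markers (217 to 278 against 489 to 784 CPM), all 6 Kupffer cell markers (182 to 344 against 420 to 872 CPM) and all 6 cell cycle genes (7.12 to 14.0 against 20.9 to 40.1 CPM) were higher against the pooled controls, where 19.7% of all genes rose. Against MCS 8 of the stellate markers were higher, where 17.3% of all genes rose. Of 6 lymphoid markers 4 were higher against the pooled controls (2.52 to 4.86 CPM in controls) and of 4 neutrophil markers 3 (3.297 to 12.07 CPM in controls), where 19.7% of all genes rose. Of the neutrophil markers 2 were higher against WT Cre and 1 against MCS, where 15.3% and 17.3% of all genes rose. KO 1 was within the control range for lymphoid (3.78 CPM) and neutrophil markers (5.86 CPM), and the other KO livers were at 9.14 to 15.3 and 14.5 to 27.1 CPM. KO 1 was also lowest of the KO livers for stellate (489 CPM), Kupffer (420 CPM) and cell cycle (20.9 CPM) markers. Of 7 cholangiocyte markers 1 was higher (49.96 to 80.63 against 71.1 to 88.2 CPM) and of 5 endothelial markers 1 (128 to 169 against 144 to 260.5 CPM), near the 19.7% of all genes that rose. Of 5 erythroid genes 0 passed by edgeR, also at an unadjusted p under 0.05 (125 to 324 against 52.3 to 219 CPM). No marker was at 0 in all livers. The part of these cell types in the changes of Igf2, Gpc3 and Igf2bp3 was not tested.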

How the data were processed

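Poly(A) RNA-seq of 10 mouse livers was analysed. The authors trimmed reads with Trim Galore, aligned them with STAR to mm10 and deposited raw counts per gene and a table of FPKM. The paper names HOMER as the counter, while the submitters' processing notes list HTSeq and Cufflinks, and the FPKM tool is not given in the sources used here. The authors' FPKM table has 268042 blank cells, of which 931 had 10 or more counts, and blanks were read as 0.

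Genes with at least 10 counts in total were tested with edgeR 4.0.16 (R 4.3.3, TMM scaling, robust quasi-likelihood test, Benjamini-Hochberg over 22449 genes, threshold 0.05). KO was set against the 6 pooled controls in a 2-group fit, and the other comparisons came from a 3-group fit. The tests were tried on simulated data first. Every pair of replicates differed by more than counting noise (chi-square divided by its degrees of freedom, 10.3 to 96.7). Ratios of counts carry exact 95% binomial intervals, and the floor was 3 counts. Levels per kilobase used merged GENCODE M21 exons. DESeq2 1.42.0, limma 3.58.1 (voom, log2 FPKM plus 1 or 0.1), other filters and scalings, a replicate block and leaving out each library gave 19 alternatives.

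The members and gene lists were chosen with earlier results of these data known. All 10 members are named with every value. From each companion list the 3 genes with the smallest p against the pooled controls are named, with any called between the controls and all genes of the albumin, glypican, trefoil and Igf2bp lists. A gene that this rule would name among the Afp regulators is not reported here. Likeness was ranked by Pearson r among genes with a mean of at least 1 CPM.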

Additional observations from a re-analysis of the deposited data

Results flagged for a closer look

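The named genes were searched for a liver far from the rest of its group of 6 controls or 4 KO livers (Dixon's test at 95%). Of 84 groups searched 7 had such a liver, and chance gives about 1 in 20. Among the members, Dlk1 in MCS 1 was at 0.204 CPM, against 0 to 0.0446 CPM in the other controls, and Igf2bp3 in WT Cre 2 was at 0.0434 CPM, against 0.159 to 0.223 CPM. Both rest on 5 or fewer counts. Tff2 in WT Cre 3 was at 0.595 CPM (other controls 0 to 0.0559), Cdkn1c in MCS 3 at 0.782 CPM (1.43 to 1.67) and Igfbp5 in WT Cre 3 at 7.98 CPM (3.18 to 4.96). In KO 1, Foxa2 was at 18.9 CPM (14.6 to 15.1 in the other KO livers) and Gpc1 at 29.4 CPM (13.1 to 15.2).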

How the results depend on the processing

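Over 19 alternatives, the number of members passing against the pooled controls was 3 to 5. It was 3 as reported and 5 with log2(FPKM + 0.1). Against WT Cre controls it was 5 as reported and 2 to 6 over the alternatives, with Zhx2 passing by library size only (edgeR adjusted p = 0.0377). It was 3 with edgeR's own low-count filter, which leaves Dlk1 and Igf2bp1 out. It was also 3 with log2(FPKM + 1) and 3 with log2(FPKM + 0.1), and 2 to 5 with a library left out. Against MCS controls it was 3 to 5, and between controls 0 throughout. Gpc3 passed in every alternative and comparison with KO. Igf2 against the pooled controls failed to pass by voom only. Directions that changed were of results that did not pass. Cebpb was 0.12 by library size, 0.21 and 0.21 with FPKM, and -0.196 to 0.0688 with a library left out (above 0 without MCS 3 or KO 1). Gpc1 was 0.13 by library size, 0.0146 with the replicate block, 0.0874 and 0.0985 with FPKM, and -0.381 to 0.0972 with a library left out (above 0 without MCS 1, KO 2, KO 3 or KO 4). Tff3 against WT Cre was 0.00956 and 0.142 with FPKM and -0.640 to 0.615 with a library left out (above 0 without WT Cre 2). H19 against MCS was -0.00301 (without KO 1) to 0.812 with a library left out. The causes were not tested. With the replicate block, 4 members passed against pooled controls, 4 against WT Cre and 4 against MCS. Against the pooled controls Dlk1 then passed (2.59, edgeR adjusted p = 0.0424), Alb, Tff1 and Sox4 did not (0.0988, 0.106 and 0.0723), and against WT Cre Igf2bp1 did not (0.0874). Same-numbered livers deviated little together (correlations -0.0387 to 0.111), which cannot show whether they shared a batch. Genes called between the controls numbered 208, and 70 to 643 over the alternatives. Library size alone moved the median of all genes by 0.18 and log2(FPKM + 0.1) by 0.11. With counts under 10 in a group, as for Igf2bp1, Dlk1 and Igf2 controls, depth limits what can be separated.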
